A study of Mus musculus with 6 samples.

Results

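The small leucine-rich proteoglycans decorin (Dcn), biglycan (Bgn), asporin (Aspn), lumican (Lum), fibromodulin (Fmod), Prelp, osteomodulin (Omd), osteoglycin (Ogn) and podocan (Podn), together with the large proteoglycan versican (Vcan), were followed in single cells of the proximal pulmonary artery (PA). These 10 genes were taken by symbol from the 53647 genes listed. Counts of unique molecular identifiers (UMIs, tags that each mark 1 RNA molecule) were summed per library and cell type over barcodes that held 500 or more UMIs and 300 or more genes and had no more than 20% mitochondrial UMIs. Levels are counts per 1000000 UMIs of that library and cell type (CPM). The 6 libraries came from C57BL/6J mice without further treatment. The 2 young libraries were from a male and a female of 3 months. The 4 old libraries were from males of 20, 24 and 27 months and from a female of 28 months. Another young male of the study was not analysed here. Arteries were taken with surrounding tissue and digested with collagenase and elastase. Where values are listed below, the young male and young female come first and the old libraries follow by age.

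Small leucine-rich proteoglycans are secreted proteins whose core of leucine-rich repeats binds collagen fibrils and sets their diameter and spacing, and several of them carry glycosaminoglycan chains and bind growth factors of the TGF-beta family. Versican instead binds hyaluronan through one end and carries many chondroitin sulfate chains, which hold water in the arterial wall. In arteries decorin and lumican are best known from adventitial fibroblasts (FBs), and biglycan and versican from smooth muscle cells (SMCs) of the media.

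Total UMIs ran from 6355125 to 50436562 per library and the median UMI count of a kept barcode from 801.5 to 8150, so the old libraries of 27 and 28 months were the deepest. The young male, young female and 24-month libraries shared 131 to 215 kept barcodes in each pair, where chance would give 0.375 to 1.15, and no other pair shared more than 4. These 3 libraries kept 2722, 935 and 2868 barcodes before doublets were removed. Shared barcodes were not removed, the tests below treat the 6 libraries as independent, and the cause of the sharing was not tested. Between 69556 and 120458 barcodes per library held 10 to 100 UMIs and served as empty droplets, a measure of free RNA, except that the 28-month library had 4016 of these and 67370 barcodes with more than 100 and up to 300 UMIs. After 301 doublets were removed, 15321 cells fell into 31 clusters made without the 10 genes, and 410 cells stayed unnamed. FBs, in which all 12 markers listed for them, such as Pdgfra, Col1a1, Dpt and Pi16, were raised, numbered 90, 29, 116, 213, 494 and 816. SMCs numbered 24, 35, 164, 11, 2342 and 952, and endothelial cells (ECs) 87, 62, 671, 204, 297 and 813. A value of 0 CPM in FBs of the young female allows up to 143 CPM and in SMCs of the 24-month male up to 342 CPM (3 counts), and these limits and all intervals below cover counting error only. The kit reads the 3′ end of each RNA, so levels were compared between genes without scaling to length.

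The 10 genes together made up 0.810%, 1.16%, 0.950%, 1.27%, 1.63% and 1.40% of all UMIs in FBs. Both old libraries of 27 and 28 months lay above the other 4. In mesothelial cells the share was 0.423% to 0.631%, in SMCs 0.148% to 0.479% and in ECs 0.172% to 0.255%, while in B, T and NK, myeloid and airway epithelial cells it was at most 0.0545%. The mean mixture differed between cell types. Dcn gave a mean of 62.7% of the 10 genes' UMIs in FBs and 74.5% in mesothelial cells. Bgn gave a mean of 54.0% in SMCs and 65.5% in ECs, and in SMCs Ogn added 18.9%. By library, Bgn in ECs ran from 40.6% to 92.2% and Dcn from 3.25% to 52.2%. Dcn exceeded Bgn in ECs of the 28-month library. SMCs of the 24-month library held only 13 UMIs of the 10 genes but counted as much as the others in these means. In lymphatic ECs, which reached 10 cells in the 2 deepest libraries and numbered at most 9 in the others, Bgn (41.4%) and Prelp (41.0%) were about level.

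**Figure D1:**
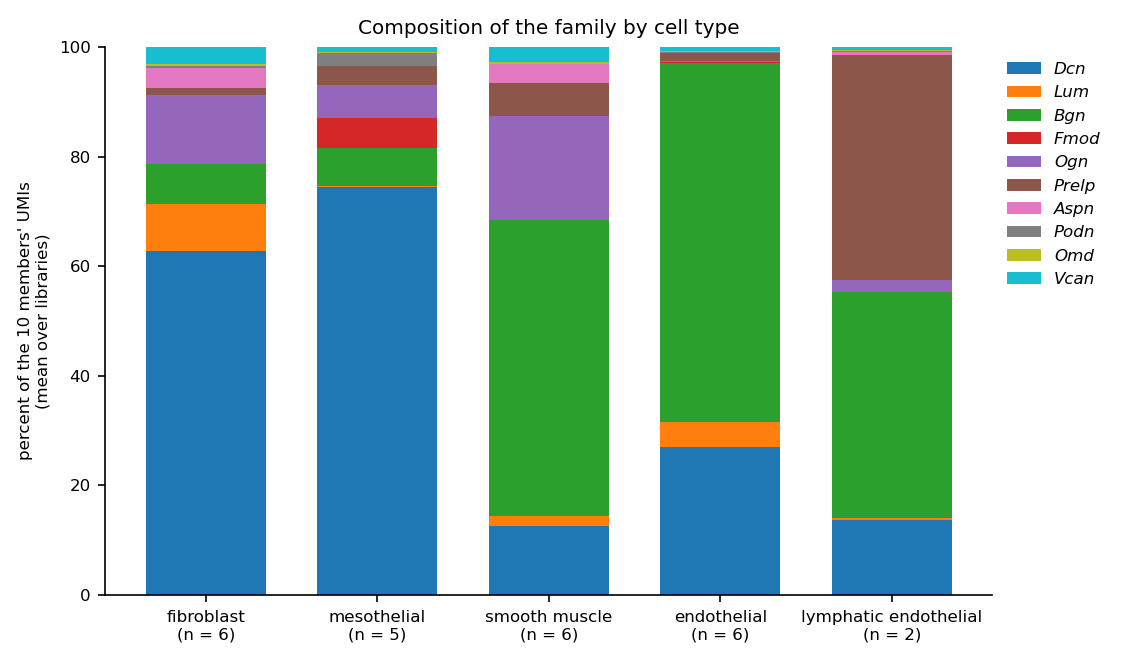
Stacked bars give each gene's percent of the 10 genes' UMIs per cell type, as the mean over n libraries. Dcn fills most of the bar in FBs (62.7%) and mesothelial cells (74.5%), Bgn in SMCs (54.0%) and ECs (65.5%), and Prelp stands beside Bgn in lymphatic ECs. The bars show no spread, and Bgn in ECs ran from 40.6% to 92.2% by library.

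Dcn (ENSMUSG00000019929, chr10:97479500-97518163) encodes decorin, which carries a single chondroitin or dermatan sulfate chain and sequesters TGF-beta. In FBs it stood at 4532, 7119, 5973, 7464, 11145 and 9613 CPM. FBs of every library lay above their own empty droplets, at 806% to 2619% of the CPM there. After thinning each cell to 500 UMIs, 91.1% to 97.0% of FBs held a Dcn UMI (96.7% to 100% before thinning). In B cells, which should lack the gene, the same share was 0% to 1.19% (0% to 10.5% before thinning), with median depths of 621 to 7285.5 UMIs against 663 to 6357 in FBs. Mesothelial cells, the lining of the pleura and pericardium, came next at 2713, 4162, 4879, 4345 and 4155 CPM in the 5 libraries with at least 10 such cells. FBs were higher in 5 of 5 of these libraries, by 0.89 ± 0.37 (SD, n = 5) on the log2(CPM + 10) scale (two-sided exact sign-flip permutation test, p = 0.0625, the smallest that 5 libraries can give).

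The biglycan gene Bgn (chrX:73483601-73495936), whose product carries a pair of such chains and can signal through Toll-like receptors, had another order. It was highest in SMCs, at 3585, 1789, 2087, 570, 2005 and 1808 CPM, and in ECs, at 2346, 1756, 1261, 1125, 1639 and 964 CPM. FBs held 581 to 1205 CPM. The lowest SMC value rested on 11 cells. SMCs and ECs did not differ beyond their spread (0.26 ± 0.68, higher in SMCs in 5 of 6 libraries, exact sign-flip p = 0.406), and SMCs stood 1.06 ± 1.21 above FBs, again in 5 of 6 (exact p = 0.0938). Both SMCs and ECs exceeded their empty droplets in 6 of 6 libraries (exact p = 0.03125, the smallest possible with 6), and so did FBs.

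The genes Aspn (chr13:49544443-49567565), Omd (chr13:49582462-49592612) and Ogn (chr13:49608015-49624501), lie side by side on chromosome 13 in the RefSeq annotation of GRCm38.p6, after Ecm2. Asporin lacks a glycosaminoglycan chain and competes with decorin for collagen, osteomodulin is a keratan sulfate proteoglycan first known from bone, and osteoglycin (mimecan) is abundant in vascular SMCs. All 3 had their highest mean level in FBs and the next in SMCs. Ogn stood at 1136, 1338, 1091, 1752, 2002 and 1714 CPM in FBs and at 838, 541, 446, 0, 1280 and 1366 CPM in SMCs. Aspn stood at 341, 764, 333, 397, 323 and 322 CPM in FBs and at 186, 125, 141, 0, 171 and 166 CPM in SMCs. The 0 in SMCs is again the library with 11 cells, whose limit of 342 CPM lies below the other SMC libraries for Ogn but above them for Aspn. Omd was low, at 25.2, 0, 49.2, 45.2, 43.9 and 49.5 CPM in FBs and at most 46.6 CPM in SMCs. FBs were higher than SMCs in 6 of 6 libraries for Ogn (1.90 ± 2.75) and Aspn (1.95 ± 1.78), both at the smallest exact p of 0.03125, and in 4 of 6 for Omd (0.72 ± 1.07, exact p = 0.188). For all 3 genes the library with 11 SMCs gave the largest difference. Its 0 counts leave only the constant added before taking logs. The means and SDs rest in large part on that library, so the sizes of these differences are not established. Outside these 2 types Aspn never passed 13.6 CPM in a type found in 3 or more libraries, whereas Ogn was also at 218 to 421 CPM in mesothelial cells. The 3 genes share their 2 highest types by mean level but not the order beyond these, as mesothelial cells held only 2 Aspn UMIs over 5 libraries. The promoter windows of these 3 adjoining genes are shown. They run from 250 bases before to 50 after each RefSeq start on the plus strand of GRCm38.p6, with TATAAA on either strand in capitals.
Aspn (chr13:49544193-49544492): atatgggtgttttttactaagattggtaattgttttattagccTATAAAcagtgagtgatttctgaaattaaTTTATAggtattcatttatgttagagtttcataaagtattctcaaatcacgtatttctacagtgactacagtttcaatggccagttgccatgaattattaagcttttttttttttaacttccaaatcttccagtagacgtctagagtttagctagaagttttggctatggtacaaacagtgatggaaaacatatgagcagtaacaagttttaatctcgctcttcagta
Omd (chr13:49582212-49582511): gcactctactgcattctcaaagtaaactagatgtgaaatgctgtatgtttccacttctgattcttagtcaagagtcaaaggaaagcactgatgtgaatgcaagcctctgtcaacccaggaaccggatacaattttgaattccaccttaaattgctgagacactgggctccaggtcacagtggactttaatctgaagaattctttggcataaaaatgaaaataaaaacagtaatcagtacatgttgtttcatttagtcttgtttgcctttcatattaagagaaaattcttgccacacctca
Ogn (chr13:49607765-49608064): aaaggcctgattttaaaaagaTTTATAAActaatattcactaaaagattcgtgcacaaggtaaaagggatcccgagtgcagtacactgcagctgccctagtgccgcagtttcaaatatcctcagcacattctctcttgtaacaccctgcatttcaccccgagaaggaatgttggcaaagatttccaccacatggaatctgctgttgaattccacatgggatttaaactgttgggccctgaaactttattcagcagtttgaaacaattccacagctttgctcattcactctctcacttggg
TATAAA occurred at 207 and 178 bases before the start in the window of Aspn and at 229 and 227 bases, overlapping on opposite strands, in that of Ogn. It did not occur in that of Omd. Of all 32851 promoter windows of this length, 13.6% held it. The letters TGACTCA (AP-1 motif, in 5.20% of all windows) and the CArG box of serum response factor (1.63%) did not occur in these 3 windows on either strand.

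Lum (chr10:97565501-97572703), the next protein-coding gene after Dcn, encodes lumican, a keratan sulfate proteoglycan that limits fibril diameter. In FBs it stood at 985, 1386, 987, 989, 763 and 764 CPM. Both deepest old libraries held the lowest values, and the remaining old libraries lay within the young range. ECs came next, at 16.5, 91.2, 173, 62.5, 153 and 124 CPM, 3.34 ± 1.15 below FBs on the log2 scale in 6 of 6 libraries (exact p = 0.03125). Although its neighbour Dcn was high in mesothelial cells, Lum was nearly absent there, with 8 UMIs over 5 libraries and at most 21.3 CPM. The share of FBs with a Lum UMI was 30.6% to 41.4% after thinning (50.2% to 83.1% before), against 0% to 1.5% of B cells.

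Fmod (chr1:134037254-134048280) and Prelp (chr1:133910304-133930102) also adjoin each other, and fibromodulin shares its collagen-binding site with lumican while Prelp, rich in proline and arginine, links basement membranes to collagen. Fmod was a mesothelial transcript here. It stood at 364, 119, 291, 463 and 231 CPM in mesothelial cells and at 0 to 9.96 CPM in FBs, a difference of 4.28 ± 0.97 in 5 of 5 libraries (exact p = 0.0625). Its neighbour had no such restriction. Prelp stood at 109 to 247 CPM in mesothelial cells, at 0 to 320 CPM in SMCs, at 75.7, 0, 171, 206, 283 and 255 CPM in FBs, and at 437 and 332 CPM in lymphatic ECs of the 27- and 28-month libraries. The first 3 of these types did not differ beyond their spread (exact p from 0.75 to 0.938). Over the 5 libraries that mesothelial cells and FBs share, FBs stood 0.07 ± 0.88 above them, higher in 4 of 5. Podn (chr4:108014793-108031954), a more distant relative, had its highest level in mesothelial cells, at 179, 67.5, 85.2, 151 and 117 CPM. FBs held 17.4 to 93.4 CPM, lower in 5 of 5 libraries by 1.15 ± 0.42 (exact p = 0.0625).

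Vcan (chr13:89655309-89743027), which lies beside the hyaluronan link protein gene Hapln1, stood at 379, 239, 200, 567, 479 and 387 CPM in FBs. In SMCs it stood at 46.6, 41.6, 55.8, 0, 299 and 202 CPM. FBs were higher in 6 of 6 libraries (2.36 ± 1.89, exact p = 0.03125). The largest of these differences came from the 24-month library, whose SMCs held 0 counts, so the size of the mean is not established. Measured values above 55.8 CPM in SMCs came only from the 27- and 28-month libraries. The young SMC values rest on 2 counts in all. The 0 at 24 months rests on 11 cells, whose limit stated above exceeds every SMC value here. Lower Vcan in SMCs of the young and 24-month libraries than in the 2 deepest is therefore not established. Among FBs the 200 CPM of the 20-month library was the lowest. In myeloid cells, which are known to make versican as monocytes, Vcan ranged from 0 to 60.7 CPM, and a cluster led by Ccr2 and Retnla held 159 CPM in the 28-month library but 3.07 CPM in the 27-month library.

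In SMCs Dcn ranged from 52.4 to 684 CPM and Lum from 0 to 141 CPM, while Fmod stayed at or below 13.9 CPM and Podn at or below 3.07 CPM. The 684 CPM was 6 counts in the 11 SMCs of the 24-month library. Dcn in SMCs exceeded the empty droplets in 1 of 6 libraries (−1.21 ± 1.90, exact sign-flip p = 0.219). Lum did so in 2 of 6 (−1.16 ± 1.67, exact sign-flip p = 0.156). The part of free RNA in these SMC values was not tested. In ECs Prelp reached 76.4 CPM, Omd and Fmod 33.0 CPM each, Vcan 22.8 CPM and Podn 6.95 CPM. In mesothelial cells Bgn stood at 271 to 474 CPM, Vcan at 25.9 to 85.2 CPM and Omd at 2.16 to 21.3 CPM. Over B, T and NK, myeloid and airway epithelial cells, the highest library value was 120 CPM for Bgn, 79.4 CPM for Ogn, 69.1 CPM for Vcan and 31.1 CPM for Lum. It was 13.97 CPM for Prelp, 11.7 CPM for Omd, 2.94 CPM for Podn and 2.17 CPM for Fmod, and Omd and Fmod had 0 counts in T and NK cells.

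**Figure D2:**
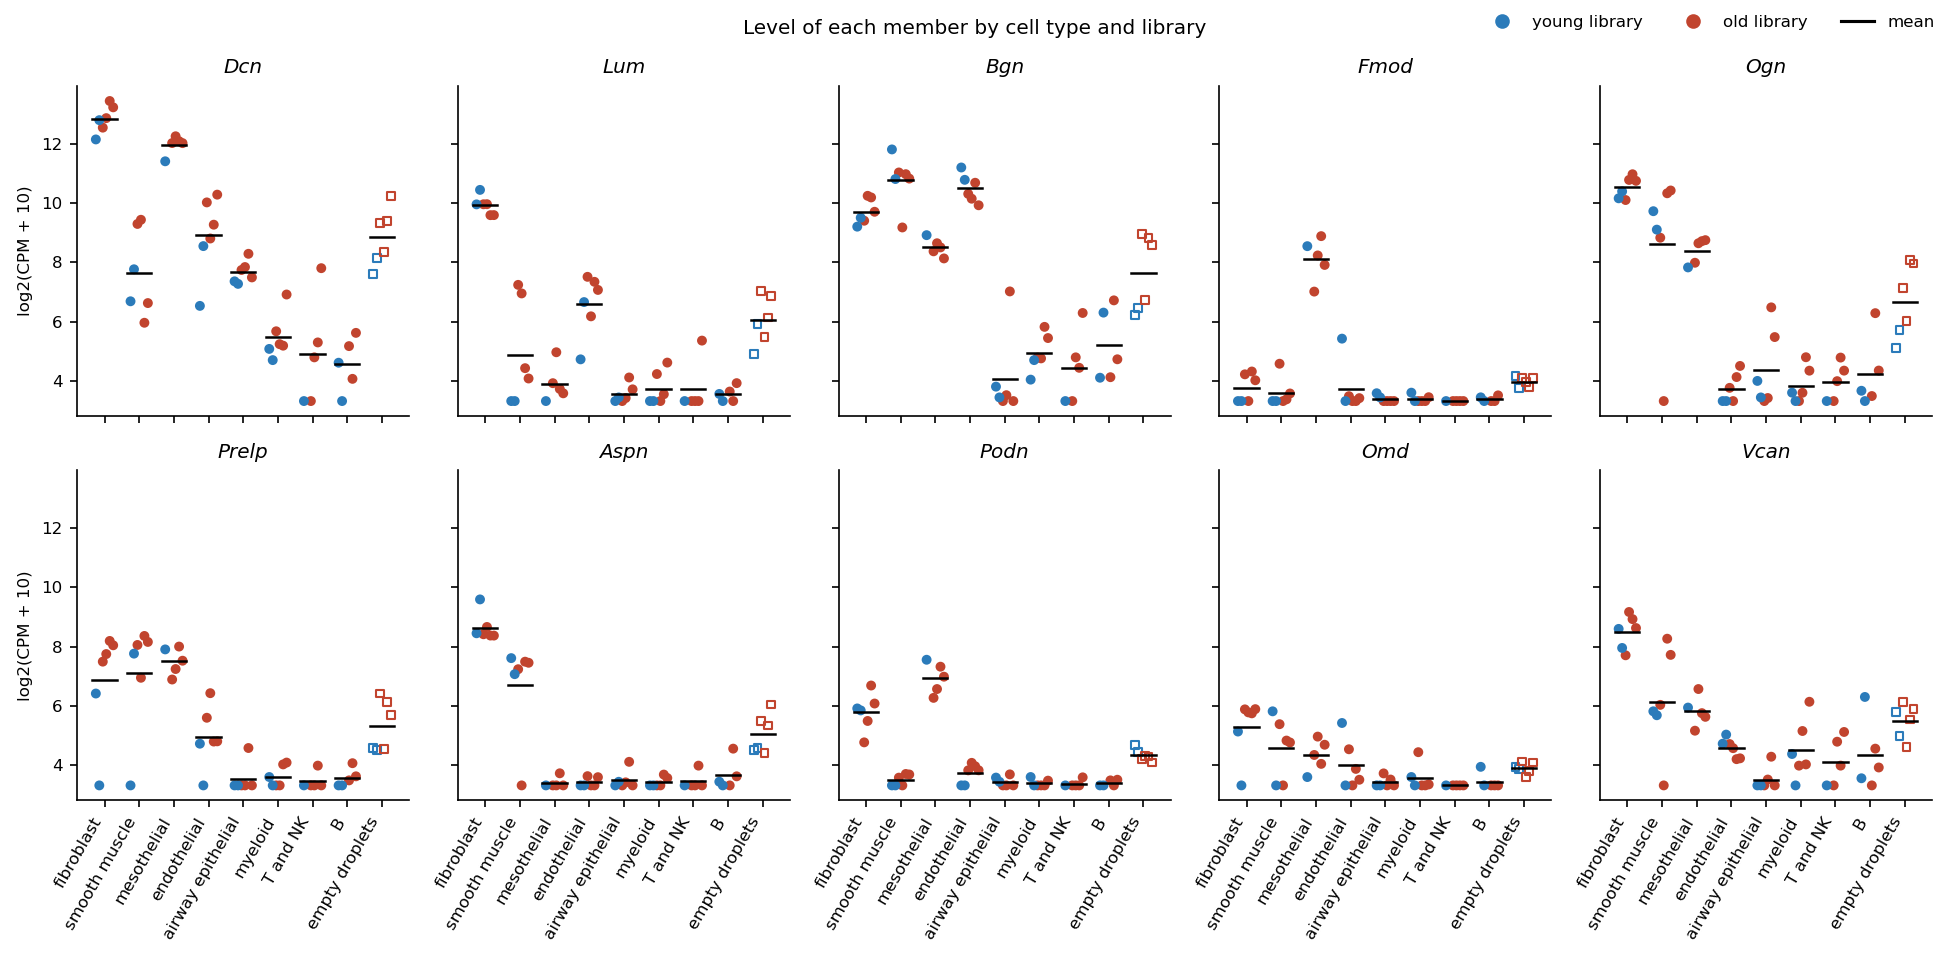
Each dot is a library's level of the named gene in a cell type, on the log2(CPM + 10) scale, with young libraries in blue, old in red and the mean as a line, and open squares give empty droplets. Dcn, Lum, Ogn, Aspn, Omd and Vcan have their highest mean in FBs, Fmod and Podn in mesothelial cells and Bgn in SMCs, and Prelp does not differ beyond its spread between mesothelial cells, SMCs and FBs.

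Over the 10 comparisons of FBs with the next or higher type, 0 passed Benjamini-Hochberg adjustment. In 4 of them p was 0.03125 (adjusted p = 0.0781), 3 were at the 0.0625 that 5 libraries allow, and 3 had a larger p. With doublets kept, mesothelial cells reached 6 libraries and 7 of 10 passed, with a smallest adjusted p of 0.0446 (exact tests). The order of types was also described by the genes whose levels followed each member most closely over 55 library and cell type profiles and 13733 genes (Pearson's r of log2 levels, a description over profiles that share libraries and depth). These were Serping1 for Dcn (r = 0.91), Mmp2 for Lum (0.89), Mgp for Bgn (0.92), Upk3b for Fmod (0.96), Fibin for Ogn (0.90), Loxl2 for Prelp (0.85), Htra3 for Aspn (0.93), Ildr2 for Podn (0.88), Loxl3 for Omd (0.79) and Thbs2 for Vcan (0.85). The next 2 were Bicc1 and Nbl1 for Dcn, Pi16 and Tmem100 for Lum, Fhl1 and Tgfb1i1 for Bgn, Crym and Crb2 for Fmod, and Vgll3 and Mrc2 for Ogn. They were Aebp1 and Frmd6 for Prelp, Islr and Ccn5 for Aspn, Gpc3 and Gas1 for Podn, Fgf2 and Vit for Omd, and Vgll3 and Ogn for Vcan. Upk3b is a mesothelial marker, and Mgp, an inhibitor of calcification, is made by SMCs and ECs.

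Free RNA of FB transcripts was measured in empty droplets. These held Dcn at 186, 272, 638, 314, 660 and 1192 CPM, so young libraries had the least. They also held Lum at 19.8 to 122 CPM, Ogn at 24.8 to 260 CPM and Bgn at 64.6 to 483 CPM. Of all Dcn UMIs, 59.5%, 18.9%, 66.2%, 52.6%, 91.3% and 83.5% lay in kept barcodes. Among the 80 combinations of gene and cell type, 14 exceeded the empty droplets in every library. Of these, 7 were in FBs (Dcn, Lum, Bgn, Ogn, Aspn, Podn and Vcan) and 5 in mesothelial cells (Dcn, Fmod, Ogn, Prelp and Podn), and the other two were Bgn in SMCs and in ECs. None passed adjustment over the 80 (exact sign-flip tests, of which 6 libraries allow no p below 0.03125), and alternatives gave 13 to 17 combinations. Airway epithelial and B cell markers in FBs put the free RNA in FBs themselves at 8.63%, 8.02%, 1.16%, 7.65%, 2.63% and 2.94% of UMIs.

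Dcn in ECs stood at 82.6, 365, 1031, 438, 608 and 1239 CPM, which is 44.3%, 134%, 162%, 139%, 92.1% and 104% of the empty droplets. Neither direction held in all libraries (0.07 ± 0.64, above in 4 of 6, exact p = 0.8125). Lum in ECs was at 83.4% to 252% of the empty droplets, above in 5 of 6 libraries (0.53 ± 0.47, exact sign-flip p = 0.0625) and below in the young male. Ogn was at 0% to 5.31% of them, below in 6 of 6 libraries (exact p = 0.03125). In the young male and female 0 Ogn counts in their main EC cluster (cluster 12) allow up to 64.1 and 86.7 CPM (exact Poisson 95% limits). Their empty droplets held 24.8 and 42.6 CPM, so these 2 libraries cannot place Ogn below them. The collagens Col1a1, Col1a2 and Col3a1 together were at 11.6% to 99.9%. Per 100 Dcn UMIs, FBs held 17.8 to 25.1 Ogn UMIs and ECs 0 to 1.24, where ECs of the young male and female had 5 and 16 Dcn UMIs. For Lum the same ratio was 6.84 to 21.7 in FBs and 10.0 to 25.1 in ECs. With barcodes of more than 100 and up to 300 UMIs as empty droplets in the 28-month library, a choice made after the data were seen, Dcn in its ECs stood at 246% of them, Lum at 229% and Ogn at 10.9%.

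**Figure D3:**
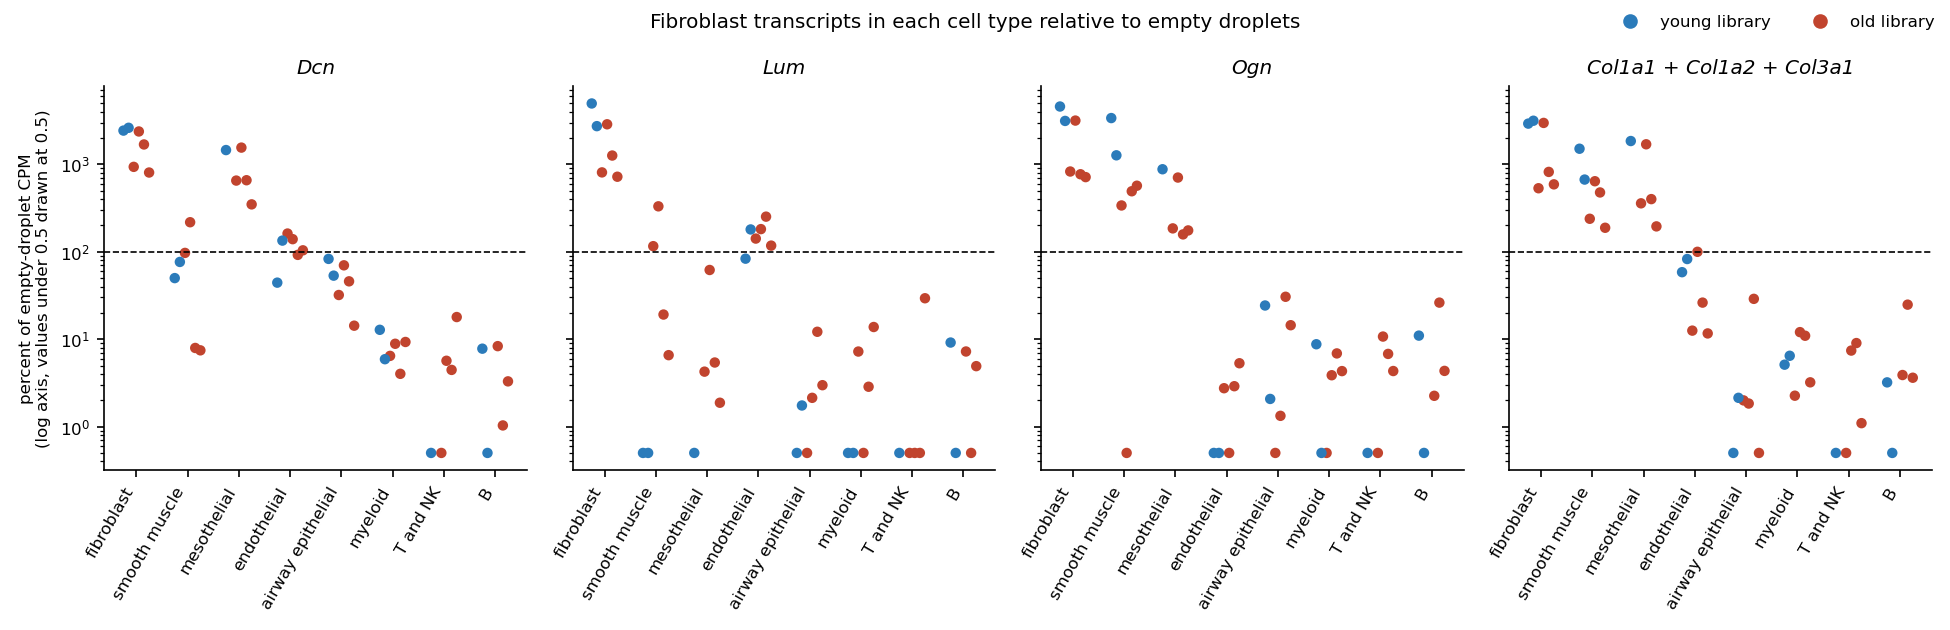
Dots give, per library, the level of Dcn, Lum, Ogn and 3 summed collagens in each cell type as a percent of the CPM in empty droplets of that library (log axis, dashed line at 100%). In ECs Dcn lies on both sides of the line, Lum lies above it in 5 of 6 libraries and Ogn stays at or below 5.31%. In myeloid, T and NK, and B cells Dcn is at most 17.9%.

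Clusters of ECs differed in the 2 deepest libraries. A cluster high in Vwf, known from larger vessels (cluster 6), held Dcn at 649 CPM in the 27-month library and 1461 CPM in the 28-month library. A cluster high in Gpihbp1, known from capillaries (cluster 20), held 34.9 CPM (exact Poisson 95% interval 7.19 to 102) and 69.0 CPM (46.9 to 98.0), which is 5.28% and 5.79% of the empty droplets. Lum was at 0 there in both libraries and at 145 to 167 CPM in cluster 6. Bgn was 46.5 and 26.7 CPM against 1745 and 1132 CPM. In the cluster of ECs found in all libraries (cluster 12, Vwf 2075 to 3660 CPM) Dcn stood at 86.8, 376, 675, 405, 941 and 1377 CPM. These clusters were compared after the data were seen and carry no test.

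Airway epithelial cells held Dcn at 154, 145, 204, 220, 303 and 170 CPM, or 14.3% to 82.9% of the empty droplets, with Lum at most 7.36 CPM. Cluster 11, with the basal cell genes Krt5 (321 to 902 CPM) and Trp63 (332 to 753 CPM), stood apart. It held Dcn at 321, 492, 492, 728 and 1398 CPM in the 5 libraries where it had at least 10 cells, or 77.1% to 232% of the empty droplets. Cluster 10, led by the club cell gene Scgb1a1, held 74.1, 82.0, 77.7, 88.0 and 261 CPM in the same libraries, lower in 5 of 5. In cluster 11 Lum was at most 4.11 CPM and Col1a1 at most 7.34 CPM. Myeloid cells held Dcn at 16.1 to 111 CPM (4.02% to 12.8% of the empty droplets) and B cells at 0 to 39.3 CPM (0% to 8.33%). An unnamed cluster of the young male (31 cells, cluster 28, with Wt1 at 816 and Col1a1 at 608 CPM) held Dcn at 2336 CPM (1973 to 2747) and neither Lum nor Fmod.

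**Figure D4:**
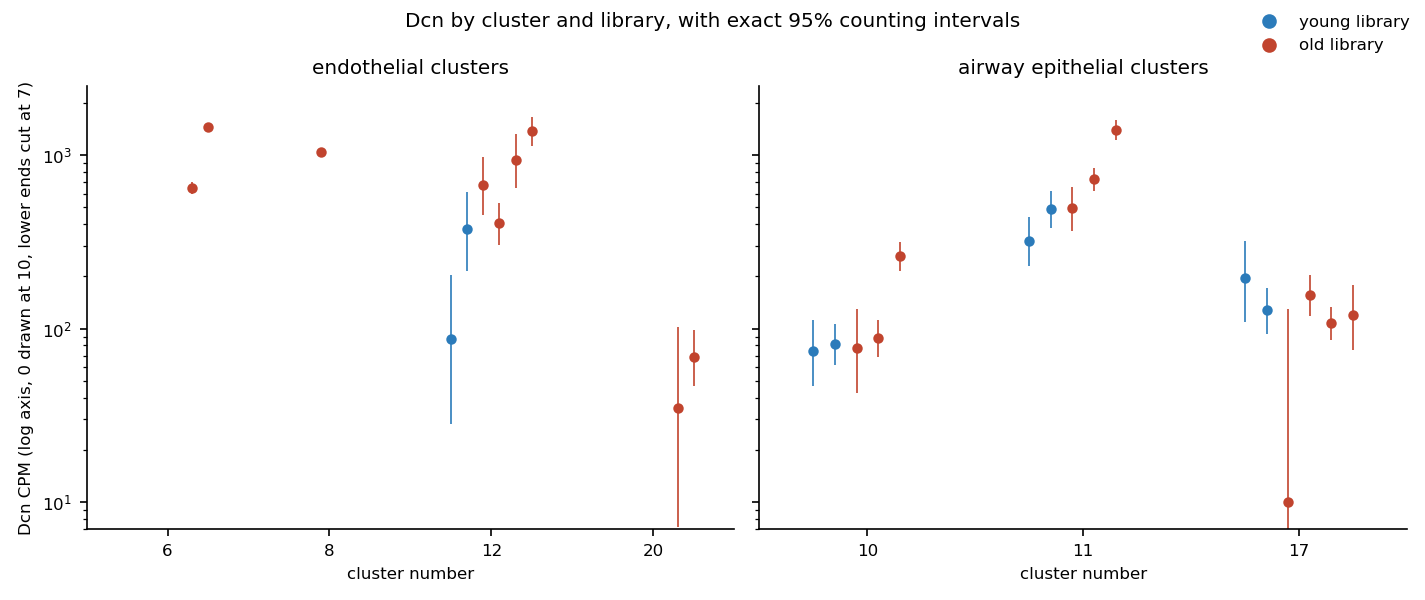
Dots are Dcn levels (CPM, log axis) by cluster and library with exact 95% Poisson intervals, young in blue and old in red. Among ECs the Gpihbp1-high cluster 20 lies at 34.9 and 69.0 CPM, below cluster 6, and among airway epithelial cells cluster 11 lies above cluster 10 in 5 of 5 shared libraries.

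Within FBs 2 clusters were found, of which cluster 13 held most FBs of the young, 20-month and 24-month libraries and cluster 1 most of those of 27 and 28 months. Median UMIs were 903.5 in cluster 13 and 6255 in cluster 1, and the part of depth in what follows was not tested. In the 27-month library Lum was 751 CPM in cluster 1 and 1999 CPM in cluster 13, and Vcan 482 and 148 CPM. In the 28-month library the same pairs were 762 and 972 CPM for Lum and 389 and 162 CPM for Vcan. At 24 months, where cluster 1 had 19 cells, they were close, with Lum at 974 and 991 CPM and Vcan at 635 and 558 CPM. In cluster 13 Vcan rested on 4 counts in 27 cells at 27 months (exact Poisson 95% interval 40.3 to 379 CPM). At 28 months it rested on 9 counts in 57 cells (74.1 to 308 CPM).

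The design asks how the genes differ between old and young PAs. In FBs 8 of the 10 genes could be tested (Podn and Fmod were not counted in more than 5% of FBs in 3 libraries, the filter used), and 0 passed edgeR's quasi-likelihood test at a Benjamini-Hochberg adjusted p under 0.05 over 6879 genes, of which 3 did (0.0436%). By DESeq2 0 of the 8 passed as well, and 1 of the 8 had an unadjusted p under 0.05 in edgeR. The median log2 fold change of the 8 was 0.62, with 6 higher and 2 lower in old FBs, against a median of 0.25 over all genes tested. Prelp was that 1 gene, with a log2 fold change of 2.08 (SE 0.67, unadjusted p = 0.00635, adjusted p = 0.674, from 0.206 to 0.999 over the alternatives). It rested on 6 counts in the young libraries, all from the male, and 0 in the female allows up to 143 CPM, beside 171 to 283 CPM in old FBs. Without the young male no fold can be given, and without the young female it was 1.51.

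Dcn was higher in old FBs by 0.71 (SE 0.42, adjusted p = 0.786), Bgn by 0.72 (SE 0.46, 0.788) and Ogn by 0.53 (SE 0.43, 0.848). Their old and young libraries overlapped. Omd was at 1.27 (SE 0.88, adjusted p = 0.813) on 2 counts in the young libraries, both from the male, so that no fold can be given without the young male, and it was 0.79 without the young female. Vcan was at 0.41 (SE 0.52, adjusted p = 0.928). Lum (−0.26, SE 0.43, adjusted p = 0.952) and Aspn (−0.43, SE 0.45, 0.898) were the 2 with lower values. Aspn was −0.05 without the young female and −0.86 without the young male, and Lum ran from −0.37 (without the 24-month library) to −0.13 (without the 27-month library). Old libraries were all above the young for Prelp and Omd, 2 of the 8, where 17.6% of all genes tested were so placed, and all below for 0 of the 8, where 7.54% were. For Omd the counting limit of the young female's 0 lies above every old value, so its placing is not established. Fitted with the 3 barcode-sharing libraries as a covariate, Dcn was 0.66, Prelp 2.06 and Vcan 1.01. In this fit only the 24-month library is set against the young ones, as the other old libraries lie outside the sharing set. Leaving out the young female took Vcan to 0.04, the 24-month library to 0.14, the 20-month library to 0.64 and the young male to 1.05.

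**Figure D5:**
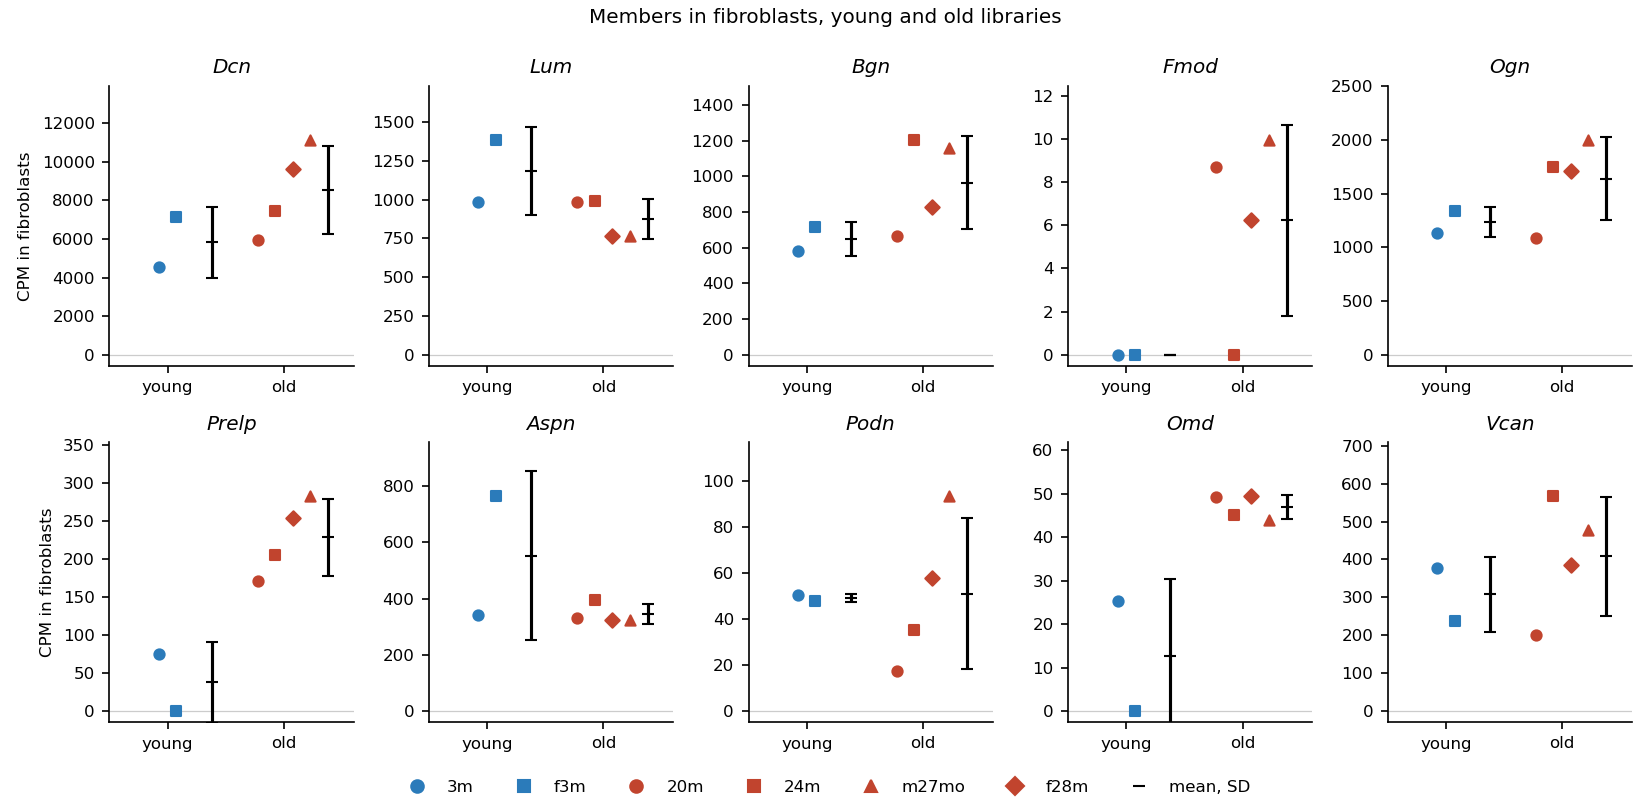
Each marker is 1 library's CPM in FBs, young in blue and old in red, with the mean and SD of the group beside it. Prelp and Omd are the genes whose 4 old libraries all lie above both young ones, as for 17.6% of all genes tested, and the young female stands at 0 for both. The counting limit of this 0 lies below the old values of Prelp but above those of Omd.

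Shares within the family do not depend on how libraries are scaled. Lum made up 12.1% and 11.9% of the 10 genes' UMIs in young FBs and 10.4%, 7.81%, 4.68% and 5.46% in old FBs (means 12% and 7.08%, two-sided exact permutation test, p = 0.133). Aspn made up 4.21% and 6.58% in young and 3.50%, 3.13%, 1.98% and 2.30% in old FBs (exact p = 0.0667). Prelp made up 0.935% and 0% in young and 1.80%, 1.63%, 1.74% and 1.82% in old FBs (exact p = 0.0667). For these 3 genes the groups did not overlap, but 2 against 4 libraries cannot give a p below 0.0667 and 0 of the 10 passed adjustment. The shares are parts of one total, so the share of a gene also moves with the levels of the others, above all Dcn. In CPM the old and young libraries overlapped for Lum and Aspn but not for Prelp. A lower share of Lum or Aspn is therefore not a lower level in every old library. By level, 17.6% of genes tested in FBs lay all above and 7.54% all below, and the like was not computed for shares. Prelp rested on 6 counts in the young libraries. The share of Dcn was 58.6% ± 3.82 (SD over 2 young libraries) and 64.7% ± 4.68 (SD over 4 old ones), and Ogn 12.8% and 12.5% (exact p = 0.2 and 0.8). FBs also lay in different clusters by library. Cluster 13 held 82 of 90 and 29 of 29 young FBs, and cluster 1 held 467 of 494 at 27 months and 759 of 816 at 28 months. The parts of cluster and depth in the differences between old and young FBs, by level or by share, were not tested.

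In SMCs 7 genes were tested and 0 passed (edgeR, adjusted p under 0.05, 4 of 7064 genes or 0.0566% passed, DESeq2 0 of the 7, and 0 of the 7 at an unadjusted p under 0.05). The largest value was Vcan, 2.26 higher in old SMCs (SE 1.2, adjusted p = 0.734) on 2 counts in the young libraries. SMCs of the 2 deepest old libraries lay mostly in other clusters than young SMCs. Cluster 14 held 22 of 24, 34 of 35, 162 of 164 and 11 of 11 SMCs of the young, 20-month and 24-month libraries. Most SMCs of 27 months (1918 of 2342) lay in cluster 0 and most of 28 months (856 of 952) in cluster 3. Summed over libraries, Vcan stood at 302 CPM in cluster 0 and 219 CPM in cluster 3 against 93.9 CPM in cluster 14. Within cluster 14 it ran from 0 to 187 CPM by library. Median UMIs were 9929, 6820 and 1404.5 in clusters 0, 3 and 14. The parts of cluster and depth in the difference between old and young SMCs were not tested. Bgn was at −0.32 (SE 0.93, adjusted p = 0.993) and Ogn at 0.61 (SE 0.95, 0.974). The median over all genes was 0.49 and fell to 0.14 when libraries were scaled by their totals alone, so values in SMCs shift with the scaling, and that of Aspn turned from 0.29 to −0.06. Dcn turned from 1.29 to −0.59 without the 20-month library, and the covariate fit turned the direction of Vcan, for which the 11 SMCs of the 24-month male held 0 counts, so that no fold is given.

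In ECs 3 genes were tested and 0 passed (edgeR, 0 of 5866 genes or 0% passed and 338 had an unadjusted p under 0.05, DESeq2 0 of the 3 and 1 gene over all). Bgn was lower in old ECs by 0.72 (log2 fold change −0.72, SE 0.49, adjusted p = 0.923), with all 4 old libraries below both young ones, as for 7.93% of all genes. It was −0.44 without the young male and −0.47 without the 28-month library. Dcn was 1.96 higher on 21 counts in the young libraries (SE 0.69, unadjusted p = 0.0137, adjusted p = 0.849), with all old libraries above, as for 12% of all genes. Beside it, Dcn in empty droplets was 186 and 272 CPM in young and 314 to 1192 CPM in old libraries, and its part in the difference was not tested. The value was 1.15 with the barcode-sharing covariate, a fit that sets only the 24-month library against the young ones. It was 1.23 without the young male and 3.28 without the young female. Lum was at 1.41 (SE 0.73, adjusted p = 0.881) on 5 counts in the young libraries, with 0.45 under the covariate, 0.57 without the young male and 2.94 without the young female. The ECs compared also lay in different clusters by library. Cluster 12 held 83 of 87 and 60 of 62 young ECs and 193 of 204 at 24 months, cluster 8 held 619 of 671 at 20 months, and cluster 6 held 230 of 297 at 27 months and 550 of 813 at 28 months. Median UMIs were 674 in cluster 12, 1945 in cluster 8 and 3463 in cluster 6. Within cluster 12 Dcn was 86.8 and 376 CPM in young and 405 to 1377 CPM in old libraries. The exact Poisson 95% intervals of 376 CPM (215 to 611) and 405 CPM (305 to 527) overlapped. Bgn in this cluster was 2310 and 1810 CPM in young and 1447, 1155, 2736 and 1456 CPM in old libraries, so the groups overlapped. Cluster 20 held 175 of 813 ECs at 28 months, with Bgn at 26.7 CPM.

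No member reached the gene filter in myeloid cells (0 of 5900 genes or 0% passed there, 323 at an unadjusted p under 0.05, DESeq2 8). In airway epithelial cells, fitted after the data were seen, Dcn was at 0.45 (SE 0.38, adjusted p = 0.819, edgeR 0 of 8263 genes or 0% passed, 503 at an unadjusted p under 0.05, DESeq2 1). Mesothelial cells could not be fitted, as the young female had 9. With doublets kept, 7 genes were tested there, 0 were called and the median was −0.09 against 0.13 over all 8135 genes.

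Genes that build, cut or bind these proteoglycans were read from the same fit in FBs, and 0 of any list passed in either direction. Of 14 genes of glycosaminoglycan sulfation 8 were tested, 7 with higher values in old FBs (median 1.21). Among them Ust, which sulfates iduronic acid of dermatan sulfate, was at 1.32 (SE 0.58, adjusted p = 0.724) on 8 and 2 young counts. Chst12, a chondroitin 4-O-sulfotransferase, had 0 counts in young FBs and 20.1 to 55.0 CPM in old ones, and as 0 counts allow up to 37.9 and 143 CPM in the young libraries no fold is given. Of 12 genes of hyaluronan synthesis and turnover 4 were tested, all with lower values (median −0.77). The hyaluronan synthase Has1 stood at 947 and 1338 CPM in young and 185, 587, 306 and 45.0 CPM in old FBs (−1.84, SE 0.89, adjusted p = 0.786). Its old libraries all lay below both young ones, as for 7.54% of all genes tested in FBs. Has2, another hyaluronan synthase, was at −0.83 (SE 0.92, adjusted p = 0.914).

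All 20 collagen fibril partners were tested, 8 with higher and 12 with lower values (median −0.21). The fibril-associated collagen Col12a1 had the lowest p, at 568 and 478 CPM in young and 113, 171, 71.1 and 120 CPM in old FBs (−2.08, SE 0.48, unadjusted p = 0.000463, adjusted p = 0.608). Col5a3, a chain of collagen V, was at −1.69 (SE 0.69, adjusted p = 0.688) on 9 and 1 young counts. Of 16 genes that make the linker and chains 11 were tested (5 higher, 6 lower, median −0.26). Csgalnact2, which starts chondroitin chains, was at 1.63 (SE 0.73, adjusted p = 0.727) on 2 and 1 young counts. Ugp2, which makes UDP-glucose, was at −0.91 (SE 0.46, adjusted p = 0.782). Of the 12 genes of versican cleavage and propeptide processing 7 were tested (4 higher, 3 lower, median 0.13). The protease Adamts15 had 0 counts in young FBs and 28.9, 25.1, 59.4 and 38.3 CPM in old ones, and under the same limits no fold is given. Bmp1, which trims propeptides of collagens and of several of these proteoglycans, was at −0.76 (SE 0.48, adjusted p = 0.786). Of 21 receptors and ligands that bind the family 12 were tested (5 higher, 7 lower, median −0.17). The ligand Bmp2 stood at 50.5 and 95.6 CPM in young FBs, on 4 and 2 counts, and at 10.0 to 40.5 CPM in old ones (−1.43, SE 0.82, adjusted p = 0.786), and the Toll-like receptor gene Tlr4 was at −0.88 (SE 0.66, adjusted p = 0.817). Other small leucine-rich proteoglycans had 4 of 9 tested. Tsku, a secreted relative that binds TGF-beta and BMP ligands, stood at 75.7 and 143 CPM in young FBs, on 6 and 3 counts. It stood at 10.8 to 30.6 CPM in old FBs (−2.12, SE 0.71, adjusted p = 0.674). Epyc (epiphycan) was at 2.07 (SE 1.47, adjusted p = 0.809) on 1 young count. Other large proteoglycans had 3 of 12 tested (median 0.02), among them the basement membrane proteoglycan Hspg2 at −0.38 (SE 0.46, adjusted p = 0.924) and the lubricating proteoglycan Prg4 at 0.31 (SE 1.21, adjusted p = 0.998).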

How the data were processed

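Proximal PAs were profiled with 10x Genomics 3′ v3.1 kits. The values the authors deposited are raw UMI counts per gene and barcode, not normalized, with cutadapt, STAR, STARsolo and GRCm38.p6 named in the submitters' processing notes. The member genes, gene lists and cell type markers were chosen with earlier results of these data known.

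Barcodes needed 500 UMIs and 300 genes or more and could hold up to 20% mitochondrial UMIs, and 301 of 15622 (1.93%) were removed as doublets with scrublet, by its automatic threshold or as the top share expected. Cells of all libraries were clustered in scanpy 1.11.5 on 2000 variable genes without the members, with 40 principal components, 15 neighbours and the Leiden algorithm of leidenalg 0.10.2 (resolution 1.0). A cluster was named for a type with over 40% and at least 3 of its markers raised, if a marker of that type was among the cluster's 10 leading genes. Where several types qualified, the one with most markers among these genes was taken. The 40% limit was chosen with the clusters in view. Counts were summed per library and type with at least 10 cells. Empty droplets were barcodes with 10 to 100 UMIs. Tests of old against young used edgeR 4.0.16 (TMM, robust quasi-likelihood test, Benjamini-Hochberg over all genes tested) in R 4.3.3, on genes counted in more than 5% of cells of 3 or more libraries, with DESeq2 1.42.0 as an alternative. Each library was 1 mouse. Levels were compared as log2(CPM + 10) with exact sign-flip and permutation tests (scipy 1.17.1), two-sided. The model was tested on simulated data. All 10 members are named in every type with at least 10 cells in at least 3 libraries, together with the 3 closest genes by level and, of each gene list, the 2 genes with the lowest p in FBs; clusters and lymphatic ECs were added after their values were seen. Of 53647 gene IDs, 35 matched the given annotation with their version and 52094 without it, and the annotation was used only for positions and promoters, by symbol. The study fitted cells in a mixed model, which was not repeated here. Alternatives are given at the end.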

Additional observations from a re-analysis of the deposited data

Results flagged for a closer look

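In groups of 4 libraries a value far from the other 3 is expected by chance in about 1 of 20 groups, and 36 groups of old libraries were examined. In 4 of them a library stood apart. The rule compares CPM values alone and takes no account of counting error, so a flagged value may lie within it. Aspn in FBs was 397 CPM in the 24-month library against 322 to 333 CPM in the other old libraries. Fmod in SMCs was 13.9 CPM in the 20-month library against 0 to 1.94 CPM. Aspn in SMCs was 0 CPM in the 24-month library, where 11 cells allow up to 342 CPM, against 141 to 171 CPM. Ogn in mesothelial cells was 244 CPM in the 20-month library against 391 to 421 CPM.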

How the results depend on the processing

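The number of members called between old and young libraries was 0 in every cell type under every alternative that could be fitted, leaving out each library included (0 to 0 members). The filter of 1000 UMIs and 500 genes could not be fitted for FBs, SMCs and ECs, because a young library then had under 10 cells, and mesothelial cells could be fitted only with doublets kept. No paired analysis was possible because the young and old libraries came from different mice, and their replicate numbers, given in accession order, pair no mice.

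Directions that turned, none of them past a threshold, were as follows, and the cause was not tested unless stated. In FBs Lum was 0.060 without a gene filter and 0.032 with the barcode-sharing covariate. In SMCs Dcn ran from −0.59 (without the 20-month library) to 2.05, Bgn from −0.74 to 0.18 (without the young male) and Omd from −0.73 (without the young female) to 9.95 when a library was left out. The last value is no fold, since without the young male the young SMCs held 0 counts of Omd. Bgn was 0.29 without a gene filter, Aspn −0.058 and Omd −0.086 with library totals only, and Omd −0.58 with doublets kept and −0.70 with the members in the clustering. With the covariate Ogn was −14.32, Prelp −0.83, Aspn −12.17, Omd −9.36 and Vcan −10.36, since this fit sets the 11 SMCs of the 24-month male, with 0 counts of several members, against the young libraries. Prelp in FBs minus mesothelial cells was −0.67 with doublets kept and ran from −0.068 to 0.066 with a library left out (−0.044 and −0.048 without the 24- and 28-month libraries). Among shares of FB member UMIs, old minus young, Ogn ran from −1.56 to 0.94 and Vcan from −1.60 to 1.01 percentage points, and they were 0.018 and 0.028 without the 20-month library. Of the 10 comparisons of FBs with the next type, 7 passed with doublets kept against 0. The remaining 110 summary counts were unchanged, and 455 single values were counted as kept. For fold changes this means the same direction and side of the threshold. For level differences and shares it means the same direction only. Counts of combinations above the empty droplets, which ran from 13 to 17, were counted as kept when similar in size. Level differences whose comparison cell type changed under an alternative were left out.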
